A study of Mus musculus with 6 samples.

Results

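The guanylate-binding proteins (Gbp) were measured on 10 probe sets of an Affymetrix mouse array that held 45037 probe sets besides its controls. They are all the probe sets whose platform gene symbol begins with Gbp and a digit. Gbp2, Gbp6 and Gbp7 had 2 probe sets each, Gbp2b, Gbp3 and Gbp8 had 1 each, and the last, shared by 2 genes, lists Gbp8 together with Gbp4. The family was chosen on the difference in its RNA between the groups compared here, so the differences of its members are given as a description, with no test. Gbp5, Gbp9 and Gbp10 had no probe set under this rule and were not analysed here.

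RNA came from 6 cultures of Ba/F3, an interleukin-3-dependent mouse pro-B cell line. All 6 carried the fusion SPAG9-JAK2, the scaffold protein SPAG9 joined to the tyrosine kinase JAK2, behind a retroviral Tet-On promoter. The 3 induced cultures were given doxycycline at 500 ng/ml to switch the fusion on, and the 3 uninduced cultures had no doxycycline. RNA was taken after 48 hours. Cells without the fusion were not treated with doxycycline on any array, so effects of the drug and of the fusion cannot be told apart. The number of clones and the interleukin-3 content of the medium are not given in the sources used here. In bulk RNA a smaller share of cells with a transcript and less of it per cell cannot be told apart.

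Guanylate-binding proteins are large GTPases of the dynamin superfamily. Interferons induce them through JAK kinases, STAT proteins and interferon regulatory factors, which act at promoter elements called ISRE (interferon-stimulated response element) and GAS (gamma-activated site). The proteins gather on bacteria and on the membranes of vacuoles that hold pathogens, often together with the immunity-related GTPases, and help to start inflammasome signalling there. Mice carry them in a cluster on chromosome 3, with Gbp2, Gbp2b, Gbp3 and Gbp7, and a cluster on chromosome 5, with Gbp4, Gbp6 and Gbp8.

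Values are signal intensities in arbitrary units, and a difference is induced minus uninduced on the scale of log2(signal + 16), with the SE from limma, which understates the change of dim probe sets. A probe set was called above background in a group where its mean was over the 90th percentile of 29 liver and brain genes, 5.81 on the induced and 6.04 on the uninduced arrays. Median signals ran from 46.3 to 63.8. Uninduced replicate 1 stood apart: over the brighter probe sets its median absolute log2 difference was 0.40 and 0.37 from uninduced replicates 2 and 3, but 0.27 from induced replicate 1, whereas uninduced replicates 2 and 3 differed by 0.13. Of the 11 measured pro-B markers 2 were above background in induced and 4 in uninduced cells. Cd79b, a subunit of the B cell receptor, was clear of it at 8.58 and 8.59, while Cd79a, Ebf1, Rag1 and Rag2 were at background in both groups. The 3 interleukin-3 receptor genes were above it in both. Of 9 macrophage and granulocyte markers 6 were above background in induced and 8 in uninduced cells, and their summed signal was 422 to 1333 and 1158 to 3250. Of 4 erythroid markers Klf1 and Epor were measured, both above background, and their summed signal was 3893 to 4830 on induced and 2302 to 2369 on uninduced arrays. Klf1, a transcription factor of red cell precursors, differed by 1.02 log2 units (adjusted p = 0.0825 in limma). Of 5 T cell and 5 mast cell markers 2 and 1 were above background in induced cells. The part of these markers in the Gbp differences was not tested.

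All 9 probe sets of a single Gbp gene had every induced array above every uninduced array. Across the array 9.35% of probe sets did so. The differences of the 9 ran from 2.62 to 7.33 log2 units, and the median over all 10 Gbp probe sets was 3.68, against -0.03 for all probe sets. In limma's fit of all probe sets 3 of the 10 passed an adjusted p of 0.05, all higher. Of all 45037 probe sets 17 passed (0.0377%), 9 higher (0.0200%) and 8 lower (0.0178%). Nothing is read from these counts, since the same comparison chose the family. With the replicate number as a block 0 of the 10 passed, as did 0 of all probe sets (6401 at an unadjusted p under 0.05 in limma). Without uninduced replicate 1, 8 of the 10 passed and the median was 4.58, but the calls rose over the whole array too, to 1374 probe sets (3.05%), 542 of them higher (1.20%). Without any other single array 0 of the 10 passed. Of all probe sets 11 passed without induced replicate 1, 9 of them higher, and 0 passed without each of the remaining arrays.

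**Figure D1:**
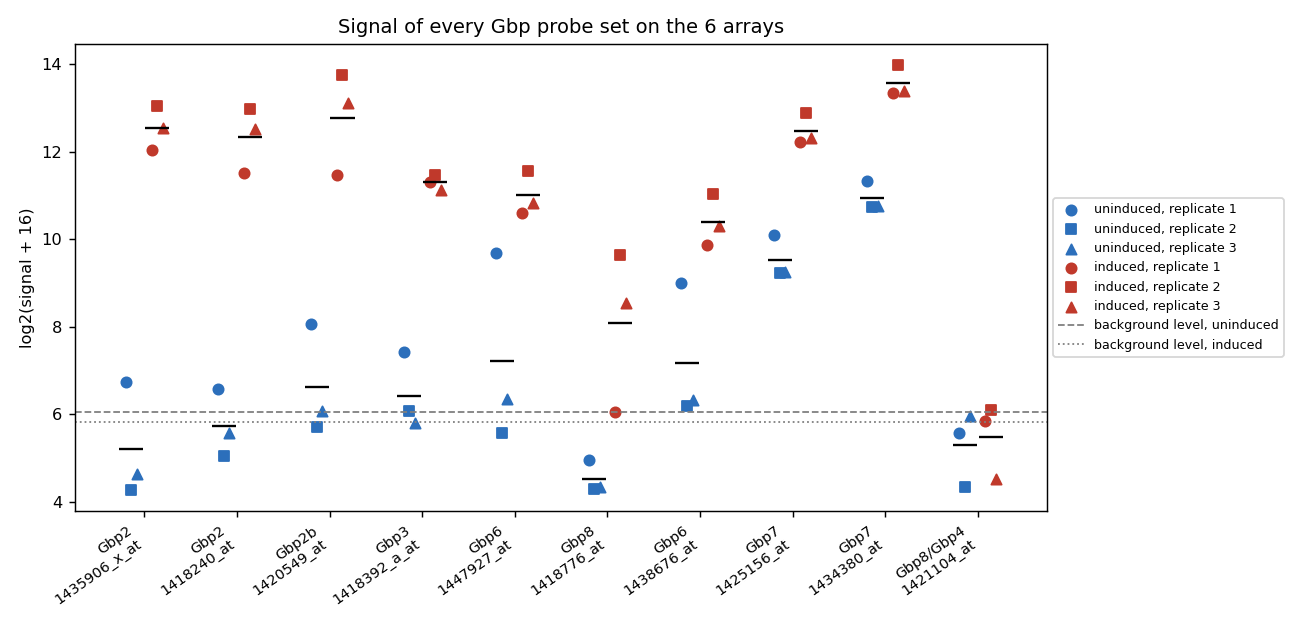
Signal of the 10 Gbp probe sets on each array, as log2(signal + 16), with induced arrays in red, uninduced arrays in blue, symbols for the replicate number and a bar for the mean of 3 arrays. The dashed and dotted lines mark the background level of uninduced (6.04) and induced (5.81) arrays. For 9 probe sets the red points lie above the blue ones, and uninduced replicate 1 is the highest blue point in each of these 9.

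On chromosome 3 the steepest differences were those of Gbp2 and Gbp2b. Gbp2 is a prenylated member that can attach to membranes. Its first probe set gave signals of 2890, 8051 and 5840 on induced replicates 1, 2 and 3 and of 80.0, 16.8 and 31.2 on uninduced replicates 1, 2 and 3. The lowest induced array thus lay 4.92 log2 units above the highest uninduced one, and the difference was 6.61 ± 0.51 (SE, n = 3 and 3). The other Gbp2 probe set gave 4176, 8444 and 5910 on induced arrays and 90.5, 3.30 and 8.66 on uninduced arrays. The suffix of its identifier, x_at, marks a probe set with probes that can also match other sequences. Its difference was 7.33 ± 0.66. Both probe sets averaged below background in uninduced cells (5.73 and 5.21), so only the level in induced cells is well measured and the size of the difference depends on the pseudocount: it was 7.16 and 8.57 with a pseudocount of 1 and 5.65 and 6.04 with 64.

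Gbp2b, long known as mouse Gbp1, had signals of 2816, 13658 and 8784 on induced arrays and of 252, 36.6 and 51.0 on uninduced arrays. The groups were well apart, with a gap of 3.40 log2 units, but induced replicate 1 was far below the other 2 induced arrays. The difference was 6.15 ± 0.79. Replicate 1 alone gave 3.40 and replicates 2 and 3 together 7.53. Gbp3 was the steadiest of the steep ones. Its signals were 2528, 2793 and 2199 on induced arrays and 154, 51.3 and 39.4 on uninduced arrays. The induced arrays had an SD of 0.17 log2 units, the smallest of any of the 10 probe sets, and the difference was 4.87 ± 0.43.

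Gbp7, linked in macrophages to the assembly of the phagocyte NADPH oxidase, differed less and was well above background in both groups. Its first probe set gave 10275, 16043 and 10675 on induced and 2570, 1678 and 1721 on uninduced arrays, a difference of 2.62 ± 0.27. The other gave 4767, 7504 and 5034 against 1070, 579 and 596, a difference of 2.95 ± 0.31. With pseudocounts of 1 and 64 the differences were 2.63 and 2.59 for the first and 2.97 and 2.87 for the other. Gbp7 was thus a transcript already present without doxycycline, whereas Gbp2 was not above background there.

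The 250 bases before the start sites of these 4 genes are shown because the genes share a motif there and differ together. They are RefSeq sequences of GRCm38.p6, all on the plus strand of chromosome 3 and written 5′ to 3′: Gbp2 at chr3:142620413-142620662, Gbp2b at chr3:142594597-142594846, Gbp3 at chr3:142559794-142560043 and Gbp7 at chr3:142530086-142530335. Capitals mark matches to the ISRE core GAAANNGAAA on either strand, each of which here lies on the minus strand.
Gbp2: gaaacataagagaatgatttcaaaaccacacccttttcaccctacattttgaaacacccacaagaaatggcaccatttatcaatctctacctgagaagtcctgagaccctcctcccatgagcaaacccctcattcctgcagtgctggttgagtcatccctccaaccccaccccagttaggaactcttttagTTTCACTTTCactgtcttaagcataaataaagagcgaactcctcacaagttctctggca
Gbp2b: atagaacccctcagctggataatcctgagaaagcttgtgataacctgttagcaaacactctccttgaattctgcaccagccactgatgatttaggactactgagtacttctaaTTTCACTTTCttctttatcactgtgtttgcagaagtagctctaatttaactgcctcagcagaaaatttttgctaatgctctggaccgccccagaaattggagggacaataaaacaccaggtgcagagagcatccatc
Gbp3: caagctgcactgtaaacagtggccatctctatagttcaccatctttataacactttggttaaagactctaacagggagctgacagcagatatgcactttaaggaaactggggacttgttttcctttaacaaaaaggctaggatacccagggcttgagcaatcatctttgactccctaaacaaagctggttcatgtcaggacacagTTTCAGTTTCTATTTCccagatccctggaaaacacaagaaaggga
Gbp7: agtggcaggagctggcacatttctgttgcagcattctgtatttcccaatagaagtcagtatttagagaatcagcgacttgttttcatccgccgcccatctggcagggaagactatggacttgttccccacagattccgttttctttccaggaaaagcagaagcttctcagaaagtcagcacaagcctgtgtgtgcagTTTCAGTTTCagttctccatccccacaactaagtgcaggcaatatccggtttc

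The matches end 50 bases before the start site in Gbp2, 128 in Gbp2b and 44 in Gbp7. In Gbp3 there are 2 matches, overlapping by 4 bases, which end 36 and 30 bases before the start. Gbp2 and Gbp2b hold the same 10 letters, TTTCACTTTC, and Gbp7 and the first Gbp3 match share TTTCAGTTTC. All 4 measured Gbp genes with a window of 300 bases, from 250 before to 50 after the start, hold the core, although a second listed start of Gbp3 does not. Among all 27025 genes with such a window 3.99% hold it. The GAS core TTCNNNGAA, which reads the same on both strands, occurs in 9.55% of genes and among these 4 only in Gbp7, which has 2 matches ending 98 and 79 bases before the start. A match describes letters in this window and does not show a bound site. Gbp4, Gbp6 and Gbp8 are not in the table of windows.

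The chromosome 5 genes Gbp6 and Gbp8 varied widely between cultures, as Gbp2b did on chromosome 3. The first Gbp6 probe set gave signals of 1541, 3013 and 1809 on induced arrays and of 803, 31.9 and 65.7 on uninduced arrays. Uninduced replicate 1 lay 3.71 log2 units above the mean of the other uninduced arrays, and of all probe sets 10 exceeded that. The second Gbp6 probe set gave 911, 2070 and 1249 on induced arrays and 499, 57.3 and 64.5 on uninduced arrays. The same array stood out by 2.74 there. The groups did not overlap on either probe set, but the arrays numbered 1 came within 0.93 and 0.85 of each other. The differences were 3.80 ± 1.01 and 3.22 ± 0.78. Replicates 2 and 3 alone gave 5.23 and 4.40.

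Gbp8 had its spread in the induced group instead. Its own probe set gave 50.1, 786 and 359 on induced arrays and 15.0, 3.48 and 4.27 on uninduced arrays. Uninduced cells were thus at background, and induced replicate 1 was barely above it, 3.05 log2 units below the mean of the other induced arrays; of all probe sets 31 lay lower by this measure. The difference was 3.55 ± 0.86. Replicate 1 alone gave 1.09 and replicates 2 and 3 together 4.79, and a pseudocount of 64 gave 2.27 over all arrays. The probe set shared by Gbp8 and Gbp4 gave 41.2, 52.7 and 7.06 on induced arrays and 31.9, 4.22 and 46.1 on uninduced arrays. It was at background in both groups, which overlapped, and its difference of 0.20 ± 0.56 gives no level for either gene.

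The same arrays were high or low throughout the family. Uninduced replicate 1 was the highest uninduced array in 9 of 9 probe sets of a single Gbp gene, where it was the highest for 50% of the 22519 brighter probe sets. Induced replicate 2 was the highest induced array in 9 of 9, against 29.6% of these, and induced replicate 1 was the lowest in 8 of 9, against 34.6%. The exception was Gbp3, where induced replicate 3 was lowest. These arrays and culture conditions are shared by all members, so the 9 probe sets are not 9 separate observations. The difference was smaller in the replicate 1 arrays than in the other 4 for all 9, by between 0.94 log2 units (the first Gbp7 probe set) and 4.31 (the first Gbp6 probe set).

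**Figure D2:**
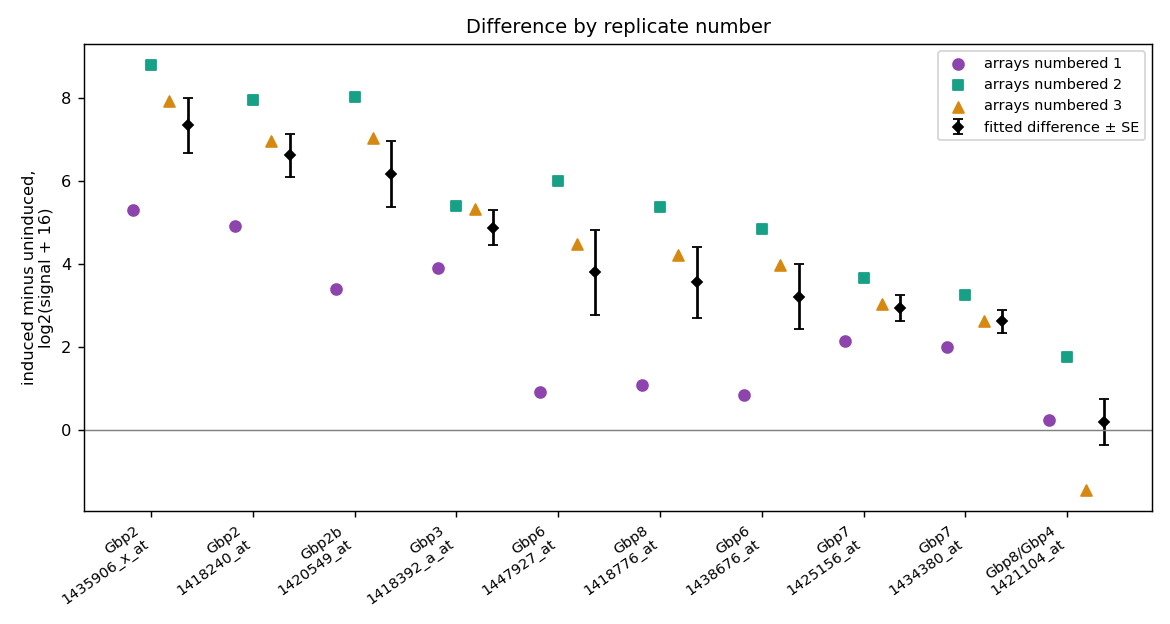
Induced minus uninduced log2(signal + 16) of each Gbp probe set within the arrays of the same replicate number, with the fitted difference and its SE from limma as black diamonds. For the 9 probe sets of a single gene the arrays numbered 1 give the smallest difference, down to 0.85 and 0.93 for Gbp6, and those numbered 2 the largest, up to 8.78 for Gbp2.

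Likeness of pattern was measured as the root mean square (RMS) difference over the 6 arrays between log2 values, each gene centred on its own mean and read from its brightest probe set. Within the family Gbp2 and Gbp2b were the closest pair, at 0.45 log2 units, and Gbp2 and Gbp7 the farthest, at 2.03. Outside the family the genes nearest to Gbp2 were the immunity-related GTPase Iigp1 (0.22), BC023105 (0.35), the nucleic acid sensor Zbp1 (0.55) and Gm4951 (0.97). Iigp1 was therefore nearer to Gbp2 than any other Gbp gene was. Nearest to Gbp3 were Oasl2 (0.40), Gm4951 (0.44), Igtp (0.51), the interleukin-18 binding protein gene Il18bp (0.55) and Zbp1 (0.58). Nearest to Gbp7 were the ADP-ribosyltransferase family gene Parp9 (0.12), Gm12185 (0.21), the transcription factor gene Irf7 (0.21), the galectin gene Lgals9 (0.25) and the immunoproteasome subunit gene Psmb10 (0.25). These distances follow both the shape and the size of a difference.

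The other genes of the pathway were read with 1 probe set per gene, the brightest. In limma 34 of 18193 genes (0.187%) passed an adjusted p of 0.05, of which 21 (0.115%) were higher and 13 (0.0715%) lower in induced cells. Of the 103 genes in 10 lists around the Gbp family 6 rose and 0 fell. The number that rose was 0 with the replicate number as a block (in limma 0 of all genes passed, 3269 at an unadjusted p under 0.05). It was 2 with the arrays numbered 1 as a batch, where 6 of all genes were called higher. It was 0 without any single array other than uninduced replicate 1. Of all genes 10 were called higher without induced replicate 1 and 1 without induced replicate 3. Without induced replicate 2, uninduced replicate 2 or uninduced replicate 3 it was 0 of all genes. Without uninduced replicate 1 there were 18 higher and 4 lower, where of all genes 586 were called higher (3.22%) and 867 lower (4.77%). Without both arrays numbered 1 there were 19 higher and 6 lower, where of all genes 524 were called higher (2.88%) and 953 lower (5.24%). In this fit of 1 probe set per gene calls thus became more frequent among all genes in both settings. In the fit of all 45037 probe sets 0 passed without both arrays numbered 1.

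**Figure D3:**
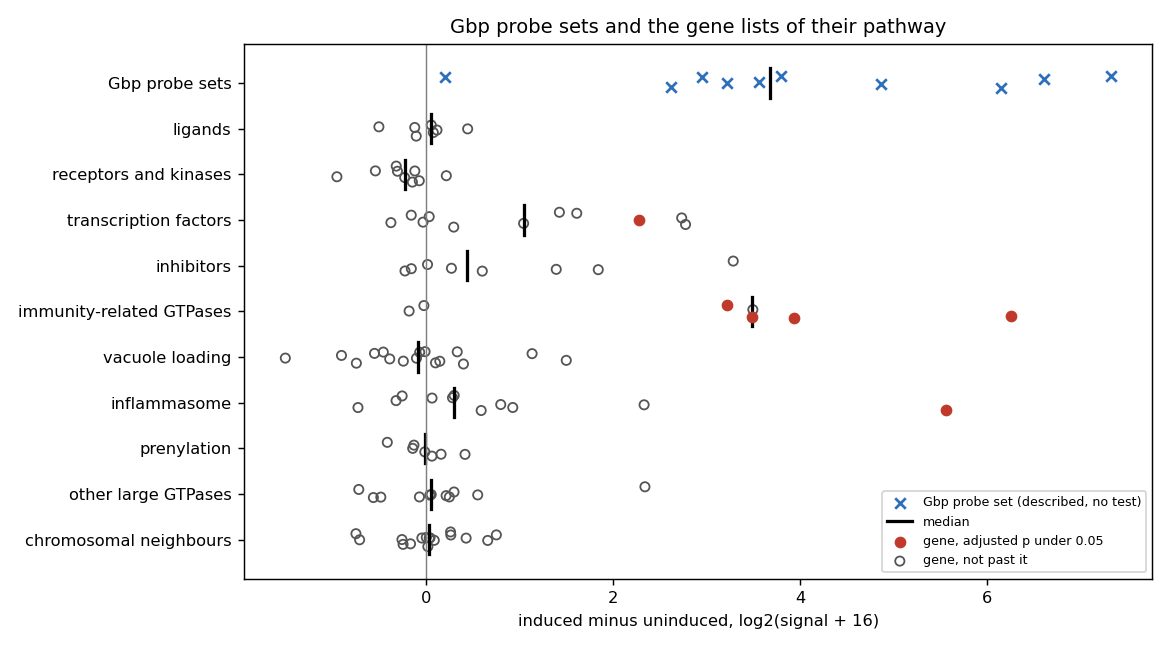
Induced minus uninduced log2(signal + 16) of the Gbp probe sets (blue crosses) and of the genes in each list, 1 point per gene, red where the adjusted p in limma was under 0.05, with a bar at each median. The Gbp median is 3.68, the immunity-related GTPases have 3.49 and the transcription factors 1.04, and the other lists lie between -0.23 and 0.43.

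Ligands and receptors of the interferon pathway gave no call. Of 7 measured ligand genes 0 passed in limma (1 at an unadjusted p under 0.05) and the median difference was 0.05, against -0.06 for all genes. Only 2 of the 7 were above background in either group, Ifnb1 and Il1b, of which Il1b is not an interferon gene. Ifnk, Ifnl2, Ifnl3 and Il27 were not measured, so nothing is read for most of the listed interferons. Ifnb1, the gene of interferon beta, had the smallest p of the list, at -0.51 ± 0.20. Its mean was above background in uninduced cells (6.26) but not in induced cells (5.75). Ifng, the gene of interferon gamma, was below background on average in both groups, at 4.84, 4.15 and 4.18 on induced and 4.19, 4.17 and 4.47 on uninduced arrays. Of 9 receptor and kinase genes 0 passed in limma (1 at an unadjusted p under 0.05), with a median of -0.23. The brightest probe set of Ifnar2, a subunit of the receptor for type I interferons, stood at -0.96 ± 0.28. It was called lower only without both arrays numbered 1 (-0.95, adjusted p = 0.0457 in limma). The other Ifnar2 probe sets differed less, at -0.24 ± 0.20 and -0.17 ± 0.20. Ifngr1 and Ifngr2, the subunits of the interferon gamma receptor, stood at 0.21 ± 0.55 and -0.08 ± 0.15. The brightest Jak2 probe set stood at -0.55 ± 0.41 and fell only without uninduced replicate 1 or without both arrays numbered 1. The other Jak2 probe set stood at -0.80 ± 0.54. Spag9, named after its values were seen, stood at -0.92 ± 0.33 on its brightest probe set. Its dimmer probe sets stood at 0.67 ± 0.34 and -0.07 ± 0.29. The stretches of transcript that array probes read are not given in the sources used here, so these probe sets check nothing about the fusion.

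Among 11 measured transcription factor genes Irf1 rose. Irf1 is an activator of Gbp promoters and stood at 11.95, 11.97 and 11.49 on induced and at 9.84, 9.31 and 9.43 on uninduced arrays. It differed by 2.28 ± 0.22 (adjusted p = 0.0396 in limma). The other 10 did not pass. The nearest were Irf7 at 2.77 ± 0.34, Stat2 at 1.42 ± 0.24, Irf9, a DNA-binding factor of the interferon response, at 1.04 ± 0.18, and Nlrc5, the activator of class I antigen presentation genes, at 2.73 ± 0.49, and in all 4 every induced array lay above every uninduced one. Of all genes 10.7% did so. The list's median was 1.04.

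Of the 8 inhibitor genes 0 passed in limma (3 at an unadjusted p under 0.05), with a median of 0.43. Ptpn6, the tyrosine phosphatase SHP-1, stood at 1.84 ± 0.26, Socs1, which blocks JAK kinases, at 1.39 ± 0.21, and Usp18, which restrains the type I interferon receptor, at 3.28 ± 0.74. Usp18 gave 10.77, 11.95 and 10.87 on induced and 9.59, 7.28 and 6.87 on uninduced arrays, with the same high uninduced array as Gbp6.

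The immunity-related GTPases, which act beside the guanylate-binding proteins on vacuoles, had a median of 3.49, and 4 of 7 measured genes rose. They were Iigp1 (6.26 ± 0.53), Igtp (3.93 ± 0.40), Irgm1 (3.49 ± 0.39) and Irgm2 (3.21 ± 0.34). Ifi47 did not pass, at 3.49 ± 0.66. Its uninduced arrays gave 11.44, 8.97 and 9.10, so replicate 1 was again the high one. The remaining 2 genes had differences of -0.18 and -0.03.

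The 16 genes that help load these GTPases onto vacuoles, mostly of the ubiquitin-like conjugation system of autophagy, gave 0 calls in limma (5 at an unadjusted p under 0.05) and a median of -0.09. The ubiquitin ligase genes Trim21 and Rnf213 stood at 1.50 ± 0.19 and 1.13 ± 0.27, but a dimmer Rnf213 probe set stood at -0.25 ± 0.26. Sqstm1, an autophagy receptor gene, and Map1lc3b, a gene of the ubiquitin-like LC3 proteins, stood at -0.75 ± 0.23 and -0.55 ± 0.19. Without uninduced replicate 1 Trim21 and Rnf213 were called higher, and Map1lc3b, Lgals3 and Atg12 lower. Lgals3, the galectin-3 gene, and Atg12, of the conjugation machinery, are named after their values were seen. They stood at -1.51 ± 0.55 and -0.91 ± 0.39 over all arrays, but another bright Atg12 probe set stood at -0.15 ± 0.55. Of 11 inflammasome and cell death genes Zbp1 rose, by 5.56 ± 0.57 (adjusted p = 0.0396 in limma), and 10 did not pass. Casp1 stood at 2.33 ± 0.36. Casp4, which encodes caspase-11, the sensor of lipopolysaccharide that guanylate-binding proteins assist, gave 10.15, 10.11 and 10.12 on induced and 10.08, 8.77 and 8.76 on uninduced arrays. It was level in the arrays numbered 1 (0.07) and stood at 1.35 in the others.

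The 7 enzyme genes of prenylation, the lipid modification that anchors Gbp2, gave 0 calls in limma (0 at an unadjusted p under 0.05) and a median of -0.02. Of 11 other large GTPases of the dynamin superfamily 0 passed in limma (3 at an unadjusted p under 0.05), with a median of 0.05. Atl1 and Opa1, genes of membrane-fusing GTPases, stood at -0.72 ± 0.19 and -0.57 ± 0.23. This Opa1 probe set was called lower only without both arrays numbered 1 (-0.89, adjusted p = 0.0447 in limma). The other Opa1 probe sets did not fall, at 0.40 ± 0.17 and 0.07 ± 0.18 over all arrays, so no direction is read for the gene. The antiviral genes Mx1 and Mx2 stood at 2.34 ± 0.99 and 0.55 ± 0.20, and Mx2 was below background on average in both groups. Mx1 gave 7.58, 9.02 and 8.19 on induced and 8.13, 5.49 and 4.16 on uninduced arrays, so the groups overlapped through uninduced replicate 1.

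Of the 16 measured genes nearest to the clusters, 4 on each side, 0 passed in limma (3 at an unadjusted p under 0.05), and their median was 0.02. They ran from -0.75 to 0.75, whereas the Gbp genes between them ran from 2.62 to 7.33. Kyat3, an aminotransferase gene beside Gbp2 on chromosome 3, stood at 0.75 ± 0.23, with every induced array above every uninduced one. It was called higher without both arrays numbered 1 (1.06, adjusted p = 0.0492 in limma). Unc5c, a netrin receptor gene on the other side, stood at -0.75 ± 0.26. Beside Gbp8 on chromosome 5 Abcg3, a transporter gene, stood at -0.71 ± 0.25. The order of the genes is that of GRCm38.p6.

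**Figure D4:**
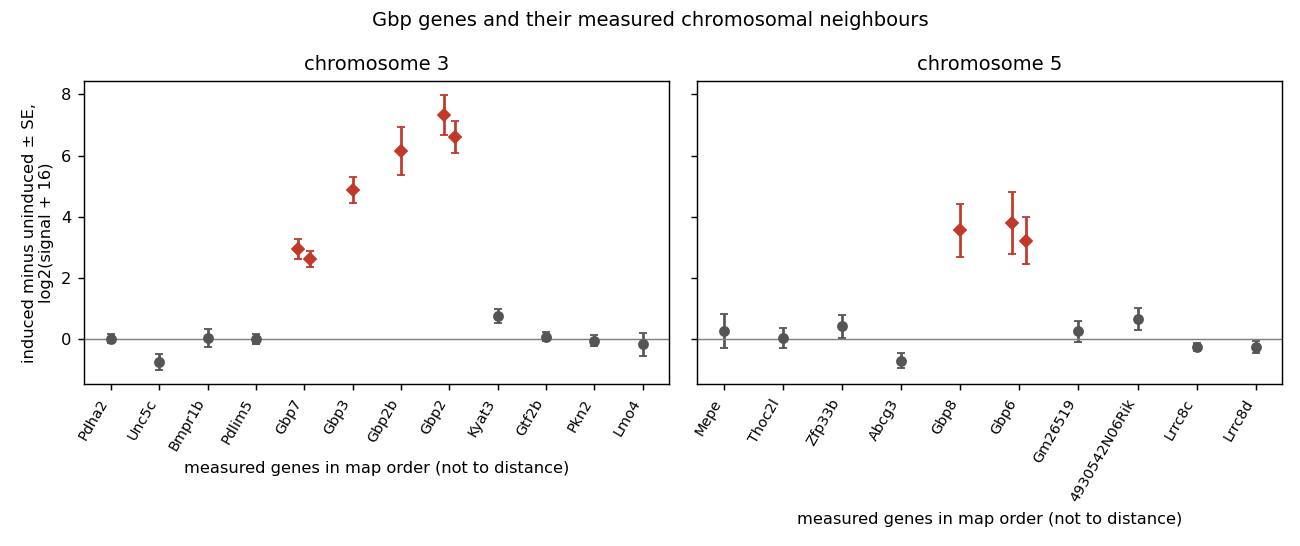
Induced minus uninduced log2(signal + 16) with its SE for the Gbp genes (red diamonds, 1 per probe set of a single gene) and the 4 nearest measured genes on each side of each cluster (grey circles), in map order and not to distance. The neighbours lie between -0.75 and 0.75 and the Gbp probe sets between 2.62 and 7.33.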

How the data were processed

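RNA of 6 Ba/F3 cultures was measured on 6 Affymetrix 3′ arrays, and the titles gave each its group and replicate number. The authors deposited linear signal intensities, made with Affymetrix Expression Console 1.4.1 per the submitters' processing notes; algorithm and annotation are not given in the sources used here. Each array had a mean of 500.0 after trimming 2% at each end. The labels name a triplicate but no separate experiments, so the p-values reflect only how these cultures vary, which may be technical. The precision is limited by the number of arrays.

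These were used as log2(signal + 16), not normalized again, without the 64 controls. Of the remaining 45037 probe sets 34945 had 1 gene symbol, 932 several and 9160 none in the platform table. The 2 groups were compared by limma 3.58.1 in R 4.3.3 (two-sided, Benjamini-Hochberg adjustment, threshold 0.05, 4 residual degrees of freedom), over all 45037 probe sets for the Gbp probe sets and over 18193 genes, with the brightest probe set of 1 symbol each, for other genes. The procedure was tested on simulated data. The simulated noise was independent between genes and arrays, so that test does not cover outlying arrays such as those numbered 1. A permutation test of 3 against 3 arrays cannot go below 0.10 and was not used. Deviations of same-numbered arrays had correlations of 0.29, 0.17 and 0.17 over the 22519 brighter probe sets. Unlike-numbered arrays gave 0.17 for induced 3 with uninduced 2 and 0.12 for induced 2 with uninduced 3. Those of an array numbered 1 with an unlike-numbered array ran from -0.25 to -0.19. Only the arrays numbered 1 thus stood apart, and these values do not settle whether the numbers pair the cultures. The main fit leaves the number out, and counts of calls with it as a block are given beside that fit. Genes outside the family were named from 10 lists, by the call or the smallest p (up to 4 not called; lists of up to 12 genes may be named in full), or as the 5 nearest to Gbp2, Gbp3 and Gbp7 in pattern (for Gbp2 only those within 1). The members, lists and alternatives were chosen with earlier results of these data known. Probe sets of near-identical genes can share transcripts, so members are less certain singly than together. Figures were drawn with matplotlib 3.10.9.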

Additional observations from a re-analysis of the deposited data

How the results depend on the processing

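The sizes of the Gbp differences were steadier than the calls. The median over the 10 Gbp probe sets was 3.68 and ran from 3.21 to 5.01 when arrays were left out (4.58 without uninduced replicate 1 and 5.01 without both arrays numbered 1), and it was 4.57 with a pseudocount of 1 and 3.06 with 64. All 9 probe sets of a single gene stayed higher in induced cells under the 14 alternatives run for them, while the probe set shared by Gbp8 and Gbp4 ran from -0.28 (without uninduced replicate 2) to 0.68 (without induced replicate 3) and was -0.11 without induced replicate 2.

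The counts of calls in limma are given in the order all probe sets, Gbp probe sets higher, genes, and listed genes higher, which were 17, 3, 34 and 6. They were 0, 0, 0 and 0 both with a pseudocount of 1 (5364 probe sets and 2807 genes at an unadjusted p under 0.05) and with the replicate block. With a pseudocount of 64 they were 136, 6, 255 and 14, with the filter at the median 171, 6, 342 and 15, and with trended and robust variance 541, 6, 550 and 16. Median centring gave 30 and 5 for the first 2. The arrays numbered 1 as a batch gave 0 and 0 for these (8002 probe sets at an unadjusted p under 0.05). They gave 2 listed genes, with 6 of all genes called higher. Leaving out arrays gave 0 to 1374, 0 to 8, 0 to 1453 and 0 to 18, and without both arrays numbered 1 the counts were 0, 0, 1477 and 19 (11167 probe sets at an unadjusted p under 0.05). The cause of these shifts was not tested. Of the genes not called, Ifng ran from -0.15 to 0.23 and Ifngr1 from -0.32 to 0.62 when arrays were left out. Signals near background limit the size of the differences of Gbp2 and Gbp8. Gbp2b, Gbp3 and the first Gbp6 probe set were also near the level of 6.04 on uninduced replicates 2 and 3. They gave 5.72 and 6.07, 6.07 and 5.79, and 5.58 and 6.35 there. The difference of Gbp3 was 4.87 in the main fit and 4.22 with a pseudocount of 64.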

Other observations

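The ISRE core seen before the Gbp start sites was also looked for in the windows of other genes. Of the 7 measured immunity-related GTPases 5 had a window, and 3 of them held it, Igtp, Irgm1 and Irgm2, while Ifi47 and Irgq did not. Of the 12 genes nearest to Gbp2, Gbp3 or Gbp7 in pattern 7 had a window and 3 held the core, Gm12185, Igtp and Lgals9. Of the 16 chromosomal neighbours 15 had a window and 2 held it, Pdha2 and Pdlim5. Among all genes with a window the share was 3.99%.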
